A study of Homo sapiens with 12 samples.

Results

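The regions described here lie at 9 genes of the contractile cytoskeleton: the actins ACTA2 and ACTB, the tropomyosins TPM1 and TPM2, the myosin light chain MYL9, the actin-binding regulators CALD1, CNN1 and TAGLN, and the anchoring protein VCL. Regions reaching by 1 bp or more into a gene or its 20 kb flanks were taken, with gene ends in hg19 given to the nearest 1 kb. This gave 169 of the 169273 regions in the 6 lists of the series, within 794 kb of sequence. Of these, 119 of 84471 came from the H3K18ac list of IMR90 and 39 of 65946 from that of H1. From the lists of bromodeoxyuridine (BrdU) incorporation, 2 of 1755 came from H1 knockdown, 4 of 5743 from IMR90, 3 of 6272 from Saos-2 and 2 of 5086 from H1 control.

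H3K18ac, a histone acetylation found at active promoters and enhancers, was mapped by chromatin immunoprecipitation from 5000000 cells of IMR90, primary lung fibroblasts, and of H1, embryonic stem cells, neither with siRNA. BrdU, a thymidine analogue that marks newly made DNA, was pulled down from 4 µg of DNA of H1 treated with siRNAs against EP300 and CREBBP (the knockdown), of untreated IMR90 and Saos-2, an osteosarcoma line, and of H1 treated with non-targeting siRNA (the control). Both siRNA-treated H1 cultures also received 10 µM HA 1077 and were collected at 72 h. The BrdU cultures of IMR90 and Saos-2 and both H3K18ac cultures are labelled without it. With 1 library in each group there was no replicate spread to set a difference against, and no p-values are given. The series holds no expression measurement used here, and the cell identities were not checked against marker genes.

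Contractile cells pull on their surroundings through filaments of actin and myosin. Smooth muscle actin, calponin, transgelin and caldesmon are markers of smooth muscle and of fibroblasts that take on a contractile state, while beta-actin is made by nearly all cells. Many of these genes are switched on by serum response factor (SRF), which binds a motif called the CArG box and is coupled to the state of the actin cytoskeleton. YAP and TAZ act through TEAD factors, which bind the letters GGAATG. EP300 and CREBBP are the acetyltransferases that place acetyl groups on H3K18.

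Promoters are shown for the 3 genes with the highest ratio of covered H3K18ac length between the lists, from RefSeq (GRCh38.p14, 250 bases before to 50 after a start). The table held 11 promoters of 6 of the genes, all but TAGLN, MYL9 and ACTB. ACTA2 has 2 starts in it, 38.6 kb apart, and CALD1 has 4, of which the third and the fourth lie 111.8 kb apart. A CArG box is CC, a core of 6 letters A or T, and GG. It was also searched with exactly 1 C or G in the core, and those matches do not include the first form. Capitals mark matches to that second form, to GGAATG and to TATAAA, on both strands.
ACTA2, start inside the gene, chr10:88952724-88953023, minus strand: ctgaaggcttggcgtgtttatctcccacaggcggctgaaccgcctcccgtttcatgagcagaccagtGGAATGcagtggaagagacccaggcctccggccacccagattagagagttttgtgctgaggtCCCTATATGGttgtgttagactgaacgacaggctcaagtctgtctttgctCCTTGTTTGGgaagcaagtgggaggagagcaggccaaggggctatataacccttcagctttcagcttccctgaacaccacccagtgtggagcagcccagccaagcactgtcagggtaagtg
ACTA2, start at the far end, chr10:88991288-88991587, minus strand: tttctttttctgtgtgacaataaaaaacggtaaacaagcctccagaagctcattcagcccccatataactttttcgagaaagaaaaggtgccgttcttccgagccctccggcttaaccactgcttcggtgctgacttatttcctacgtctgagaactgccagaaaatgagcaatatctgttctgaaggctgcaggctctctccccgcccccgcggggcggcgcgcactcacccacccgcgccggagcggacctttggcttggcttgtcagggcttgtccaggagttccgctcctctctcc
CALD1, the third start, chr7:134779384-134779683, plus strand: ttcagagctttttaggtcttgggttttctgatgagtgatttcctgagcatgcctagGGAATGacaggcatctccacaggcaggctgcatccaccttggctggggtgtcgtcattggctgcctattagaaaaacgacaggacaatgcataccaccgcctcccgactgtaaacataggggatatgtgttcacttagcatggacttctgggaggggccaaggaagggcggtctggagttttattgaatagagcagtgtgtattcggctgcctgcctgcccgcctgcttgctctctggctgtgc
CALD1, the fourth start, chr7:134891208-134891507, plus strand: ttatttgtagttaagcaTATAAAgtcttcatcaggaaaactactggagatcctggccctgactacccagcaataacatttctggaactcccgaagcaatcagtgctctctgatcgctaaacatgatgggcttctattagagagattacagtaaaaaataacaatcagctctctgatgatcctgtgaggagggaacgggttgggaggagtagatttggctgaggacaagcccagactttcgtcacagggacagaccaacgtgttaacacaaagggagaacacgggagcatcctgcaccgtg
VCL, chr10:73997866-73998165, plus strand: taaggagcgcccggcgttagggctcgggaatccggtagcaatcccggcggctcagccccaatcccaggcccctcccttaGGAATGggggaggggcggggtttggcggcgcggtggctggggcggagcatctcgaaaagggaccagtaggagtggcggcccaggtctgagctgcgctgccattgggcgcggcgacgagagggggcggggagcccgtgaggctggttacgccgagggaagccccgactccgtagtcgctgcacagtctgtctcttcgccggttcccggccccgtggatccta

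The inner ACTA2 promoter held CArG boxes with 1 C or G in the core at bases 130 to 139 and 180 to 189, counted from 1 at the 5′ end, and GGAATG at bases 68 to 73. The far ACTA2 promoter held none of the motifs searched. Among the 35116 promoters of the table, 6.94% held such a CArG box, 14.0% held GGAATG and 11.5% held TATAAA. A CArG box without a C or G in the core was present in 1.29% of all promoters and in 0 of these 11. Of the other promoters, GGAATG was present in those of VCL and of the second and the third CALD1 start, TATAAA in that of the fourth CALD1 start, and a CArG box with 1 C or G in that of the first. The promoters of CNN1, TPM1 and TPM2 matched no motif searched. These are matches of letters and not measured binding sites.

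As listed, the genes carried more H3K18ac in the fibroblast list than in the stem cell list, with ACTB as the exception. IMR90 regions covered 63600 bp of the 794 kb, or 8.01%, and H1 regions covered 17600 bp, or 2.22%. All 9 genes had H3K18ac in both lists, as did 23.3% of 50 kb tiles of the genome and 38.4% of 100 kb tiles. The ratio was 3.61, set beside 2.51 for the whole lists (39.5 Mb in IMR90 and 15.7 Mb in H1). The mean region length at the genes was 542 bp in IMR90 and 451 bp in H1, and over the whole lists 467 bp in IMR90 and 239 bp in H1. Covered length was at least 2 times larger in IMR90 at 8 of the 9 genes, with TPM2 exactly at that limit. Of the 13001 tiles of 50 kb with H3K18ac in both lists, 47.5% met the same rule, and of 100 kb tiles 49.1%. Among tiles with H3K18ac in either list the shares were 41.2% at 50 kb and 40.8% at 100 kb. The median ratio over the 9 genes was 4.11, and over the 50 kb tiles with H3K18ac in both lists it was 1.67. When each list was scaled to its own total covered length, 3 genes remained above 2, namely CALD1 (5.41), ACTA2 (4.44) and VCL (3.67). Of the 50 kb tiles with both lists, 26.9% met the scaled rule, so 3 of 9 lay near the background. The scaling also turned TPM2 to more in H1, at 0.80. Over the 5 genes with short bodies, TAGLN, MYL9, TPM2, CNN1 and ACTB, the ratio of covered length was 1.80, below that of the whole lists, and without ACTB the 8 other genes gave 5.20. The depth of the libraries is unknown, and a stretch without a region may have lain just under the threshold of the authors.

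**Figure D1:**
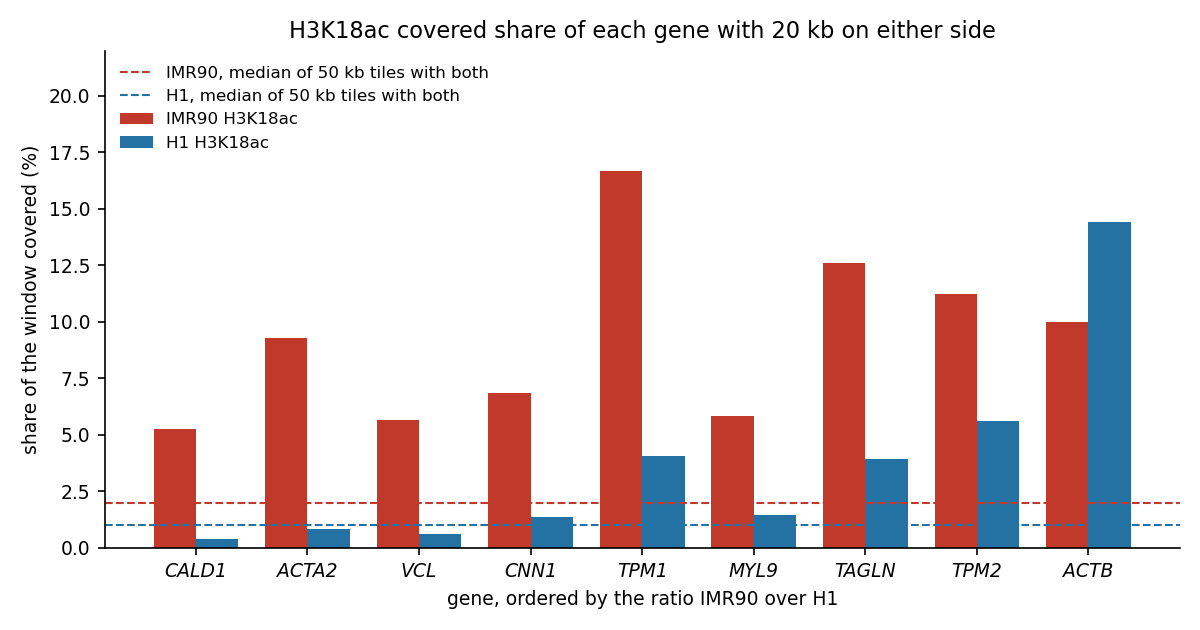
Share of each gene window (gene with 20 kb on either side) covered by H3K18ac regions, in percent, for IMR90 (red) and H1 (blue), 1 library each. Dashed lines are medians of the 50 kb tiles that hold H3K18ac in both lists, 2% in IMR90 and 1% in H1. As listed, red exceeds blue at every gene but ACTB, and blue lies below its dashed line at CALD1, ACTA2 and VCL.

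The 3 highest ratios were those of CALD1, ACTA2 and VCL. CALD1, whose product caldesmon binds actin and restrains myosin, had 30 regions over 12200 bp in IMR90 and 4 regions over 900 bp in H1, a ratio of 13.6. ACTA2, the smooth muscle actin, had 13 regions over 8900 bp in IMR90 and 1 region of 800 bp in H1, a ratio of 11.1. VCL, or vinculin, which ties actin filaments to sites of adhesion, had 20 regions over 9200 bp in IMR90 and 2 regions over 1000 bp in H1, a ratio of 9.20. These are the 3 longest of the 9 genes, with bodies of 191 kb for CALD1, 56 kb for ACTA2 and 122 kb for VCL, and the part of gene length in the ratio was not tested. The H1 list covered less of these windows than of any of the other 6, at 0.390% for CALD1, 0.833% for ACTA2 and 0.617% for VCL. The IMR90 shares of CALD1 (5.28%) and VCL (5.68%) were the lowest of the 9 genes, and that of ACTA2 (9.27%) was the median.

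At CNN1, TPM1, MYL9 and TAGLN the ratio lay between 3.22 and 5.00. CNN1, or calponin, an actin-binding regulator of smooth muscle, had 3500 bp in IMR90 and 700 bp in H1. MYL9, the regulatory light chain of smooth muscle and non-muscle myosin, had 2800 bp in IMR90 and 700 bp in H1. TAGLN, or transgelin, had 5800 bp in IMR90 and 1800 bp in H1. The tropomyosins, which lie along the actin filament and govern access of myosin, differed from each other: TPM1 had 11500 bp in IMR90 and 2800 bp in H1, a ratio of 4.11, and TPM2 had 5400 bp in IMR90 and 2700 bp in H1, a ratio of 2.00. TPM1 had the largest covered share of the 9 genes in IMR90, 16.7%, higher than 98.7% of the 50 kb tiles. Tiles without any region are counted in that figure, and the median of all tiles was 0 in both lists.

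As listed, ACTB alone had more H3K18ac in H1, with 4300 bp in IMR90 and 6200 bp in H1, a ratio of 0.694. Of the tiles with both lists, 33.8% of 50 kb tiles and 33.0% of 100 kb tiles also had more in H1. After the scaling to whole lists, ACTB (0.28) and TPM2 (0.80) had more in H1, as did 59.1% of the 50 kb tiles. The H1 share of the ACTB window, 14.4%, exceeded 99.98% of the 50 kb tiles. The H1 list alone extended the mark upstream of ACTB. There the IMR90 region on chromosome 7 at 5570501 to 5571600 measured 1100 bp, and the H1 region at 5570601 to 5572600 measured 2000 bp and was followed by another of 800 bp at 5572901 to 5573700. Within its own list that 2000 bp region ranked 145 by score, and no other H1 region at the 9 genes ranked higher. Downstream of the gene a H1 region of 1300 bp at 5552901 to 5554200 overlapped 2 IMR90 regions of 300 bp each. RefSeq places FBXL18 within 20 kb of ACTB, and which gene a flanking region belongs to was not tested. In the ACTB body itself the order was the other way, with 2100 bp in IMR90 and 1600 bp in H1. The longest IMR90 region of the window lay there and measured 1800 bp at 5567501 to 5569300. At the start both lists held the same region of 300 bp, at 5569701 to 5570000.

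**Figure D2:**
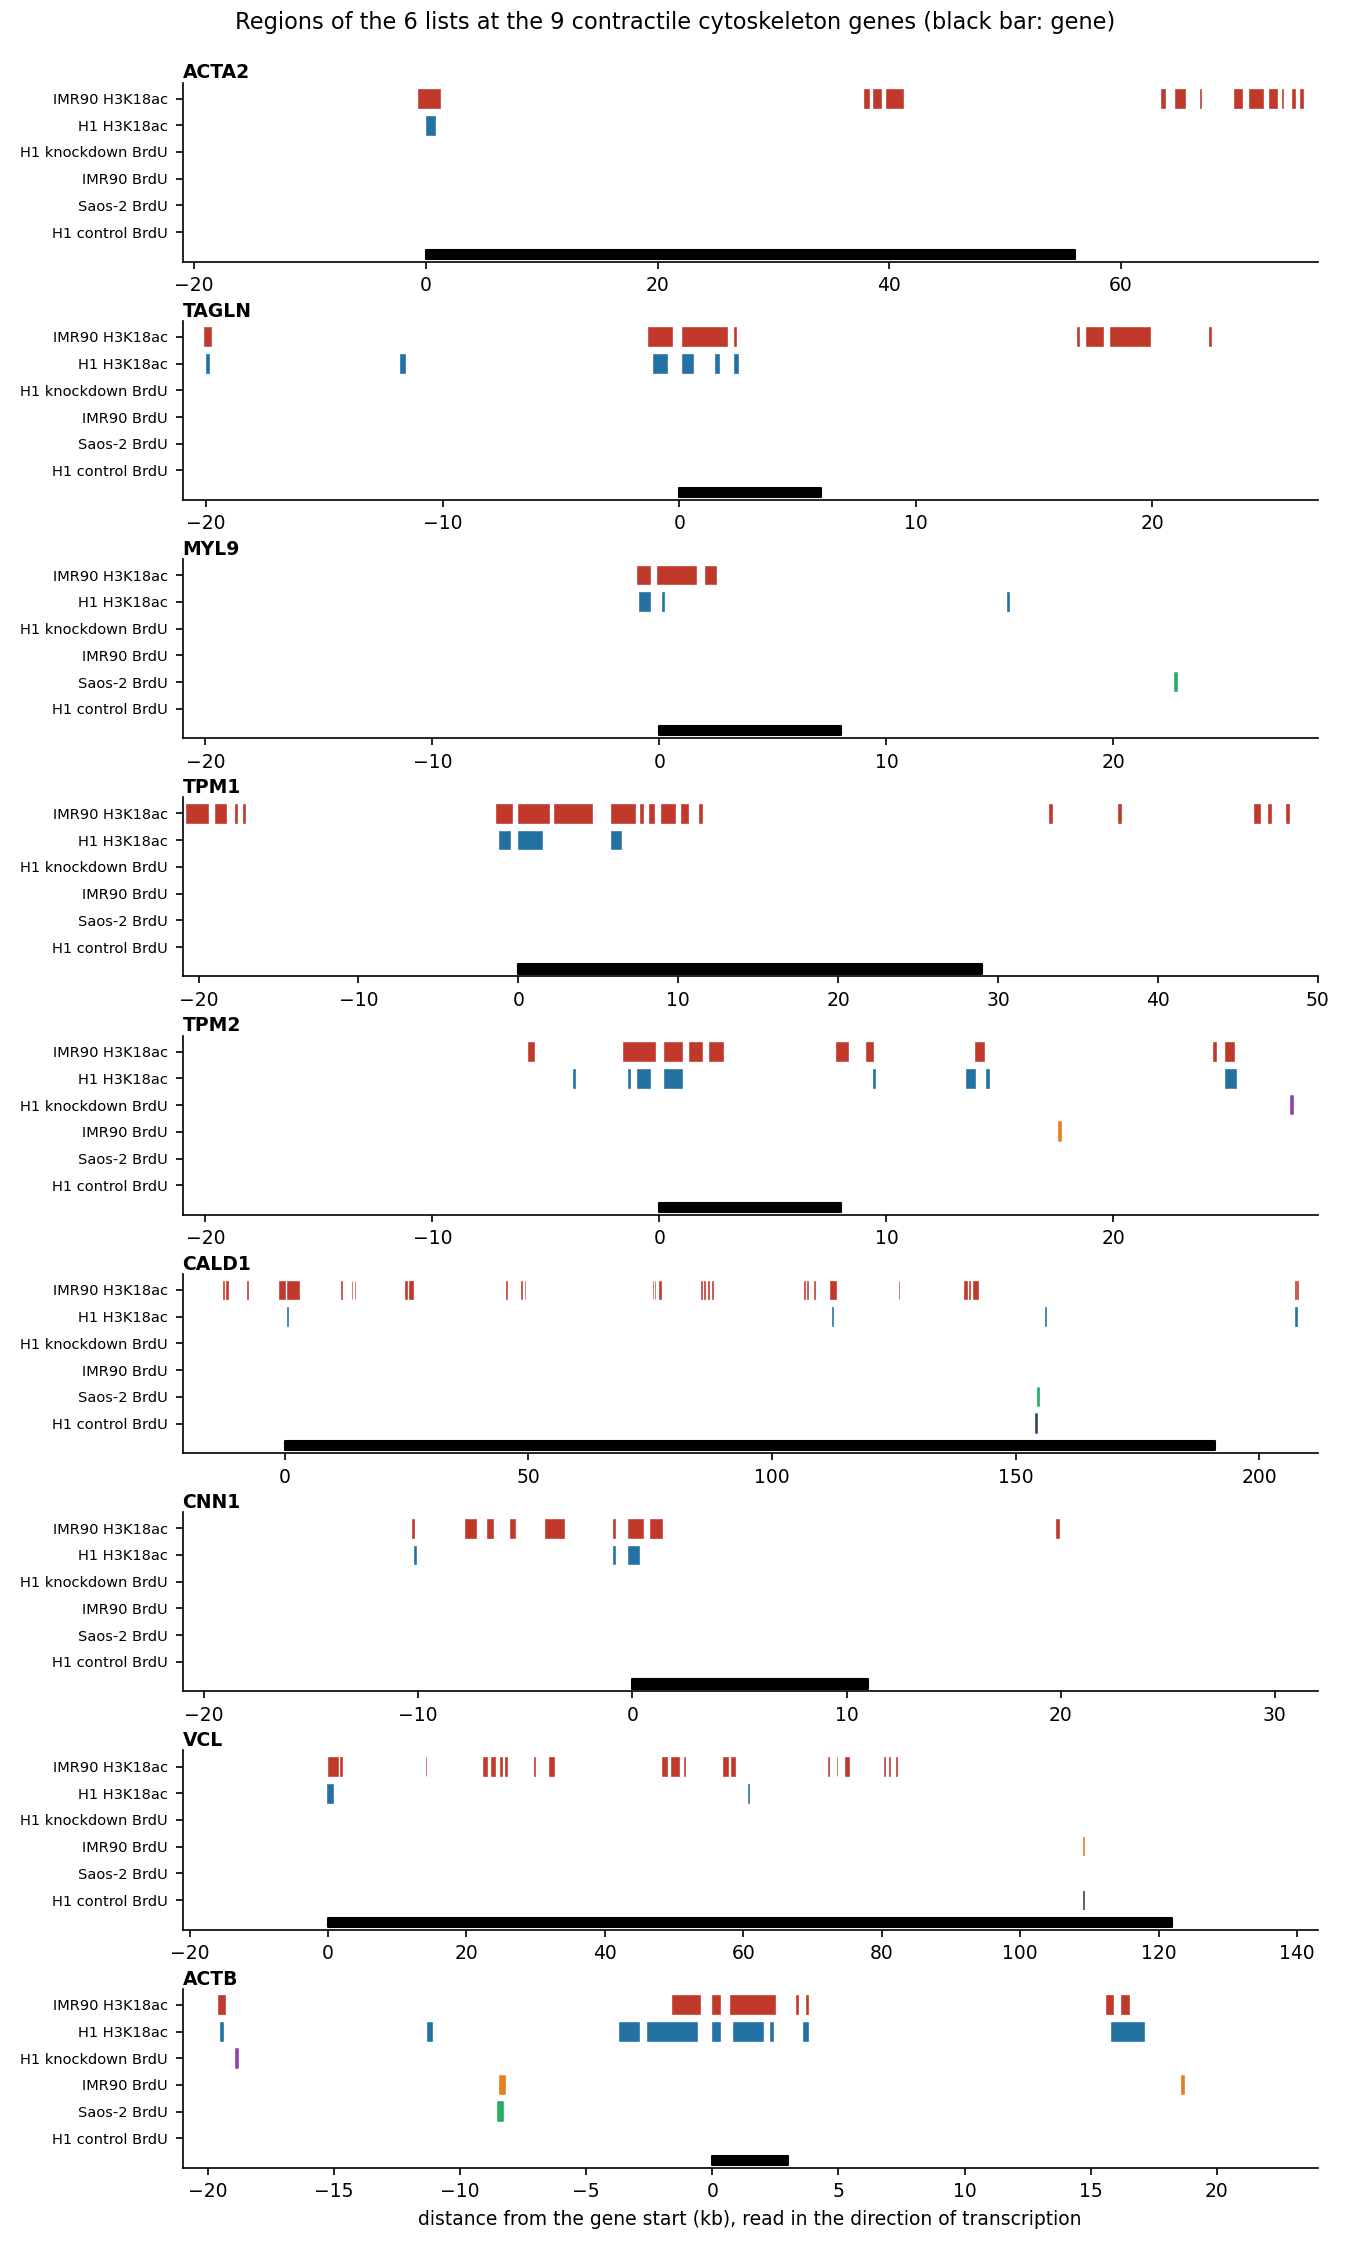
Every region of the 6 lists at the 9 genes, drawn by distance from the gene start in kb, with transcription running to the right and a separate scale for each gene. Coloured boxes are regions, rows are lists and the black bar is the gene. Within the gene bodies of CALD1 and VCL and downstream of ACTA2 the IMR90 H3K18ac row holds many regions where the H1 row is nearly empty, while at TPM2 and ACTB both rows have regions in the flanks.

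At the gene starts most regions of each list overlapped one of the other list. No share over the starts of other genes is given, as their hg19 positions were not used here. Of the 119 IMR90 regions 99 lay elsewhere, so most of those without a H1 counterpart could only lie there. All 18 H1 regions within 2 kb of a start overlapped an IMR90 region, and 16 of 20 IMR90 regions there overlapped a H1 region. Elsewhere in the windows, 10 of 99 IMR90 regions (10.1%, Wilson 95% interval 5.58 to 17.6) overlapped H1, and 10 of 21 H1 regions (47.6%, 28.3 to 67.6) overlapped IMR90. That IMR90 interval includes the 14.5% of its whole list, while that H1 interval lies above the 19.0% of its own. Only the point where a gene interval begins was counted as a start. Other starts of a gene and those of neighbouring genes may therefore lie elsewhere, so these shares do not describe sites away from promoters. Taken over all windows, 26 of 119 IMR90 regions (21.8%, 15.4 to 30.1) were shared, set beside 14.5% of the whole list. For H1 the count was 28 of 39 (71.8%, 56.2 to 83.5), set beside 19.0% of the whole list. The intervals cover counting error only, and neighbouring regions are not independent. H1 regions at the genes were longer than in the list as a whole, with medians of 300 bp there and 100 bp in the list, and the part of that length in the shares was not tested. IMR90 regions had a median of 300 bp at the genes and in the whole list.

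Within 2 kb of the starts, IMR90 regions covered 21500 bp and H1 regions 11000 bp, a ratio of 1.95. Over the gene bodies, starts included, they covered 40200 bp in IMR90 and 8100 bp in H1, a ratio of 4.96. In the flanks they covered 23400 bp in IMR90 and 9500 bp in H1, a ratio of 2.46. The starts thus held 33.8% of the covered length in IMR90 and 62.5% of that in H1. The ratio of the whole lists was 2.51, so those of the starts and the flanks lay below it and that of the bodies above. Shared regions were longer: in IMR90 the 26 shared regions had a median of 900 bp and the 93 found in IMR90 alone a median of 200 bp. In H1 the 28 shared regions had a median of 500 bp and the 11 found in H1 alone a median of 100 bp. An overlap of 1 bp counted as shared, which a longer region meets more easily. Lengths of shared regions over the whole lists were not computed, so whether this is particular to these genes was not tested. In both ACTA2 and TPM1 every covered base of H1 was also covered in IMR90.

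**Figure D3:**
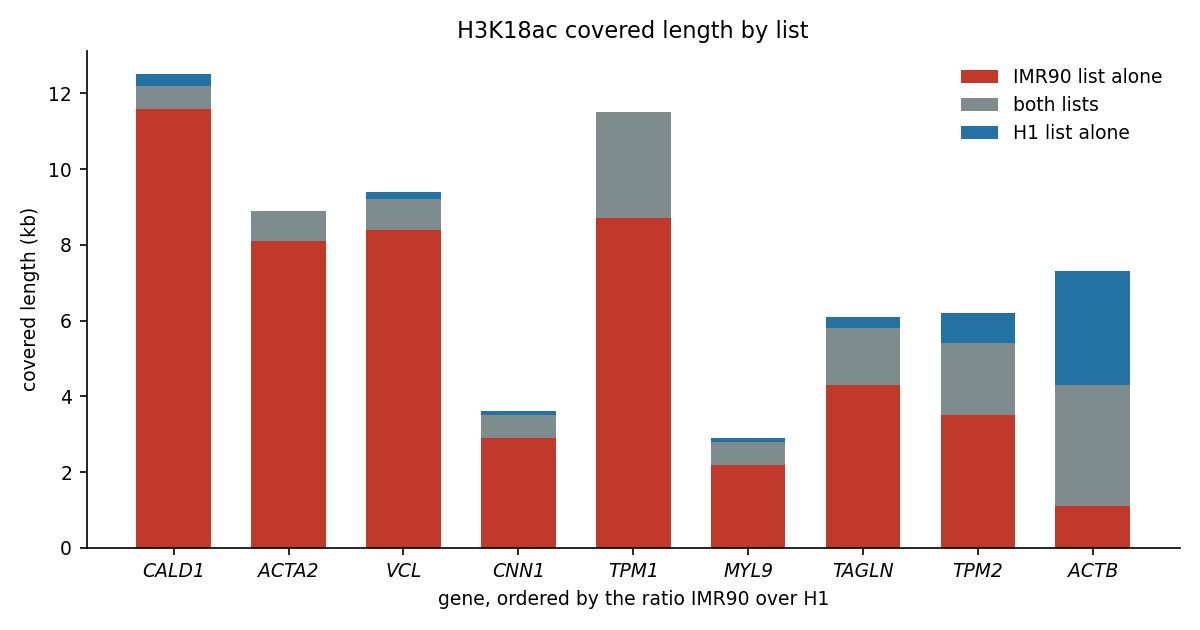
Covered length of H3K18ac per gene window in kb, divided into bases found in the IMR90 list alone (red), in both lists (grey) and in the H1 list alone (blue). Red makes up most of each bar except at ACTB, where 3200 bp were common, 3000 bp were found in H1 alone and 1100 bp in IMR90 alone.

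In the ACTA2 window the 2 lists overlapped only where the interval of the gene begins. There, on chromosome 10, an IMR90 region of 1900 bp at 90749801 to 90751700 contained the single H1 region of 800 bp at 90750201 to 90751000. Inside the gene, 37.8 to 41.2 kb from that start, IMR90 had a cluster of 3 regions over 2700 bp at 90709801 to 90713200, and H1 had none. Its longest region, 1500 bp at 90709801 to 90711300, ranked 2712 of 84471 by score. The 2 RefSeq starts of ACTA2 lie 38.6 kb apart in GRCh38.p14, and the builds were not aligned to each other. Past the 3′ end, IMR90 had 9 further regions in the 20 kb flank, and 6 of them joined into a cluster at 90675301 to 90681200. H1 had none there either. Only the outer end of the interval was counted as a start, so the cluster inside the gene was counted as away from it. FAS and STAMBPL1 also lie within 20 kb of ACTA2 in RefSeq. Which gene the region at the outer end or a flanking region belongs to was not tested.

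CALD1 had marked stretches scattered from its start to 142.2 kb into its body of 191 kb in IMR90. At its start the IMR90 regions measured 1300 bp (chromosome 7, 134462701 to 134464000) and 2400 bp (134464401 to 134466800), and the H1 list held a single region of 200 bp at 134464501 to 134464700. Farther in, an IMR90 region of 1300 bp at 134575901 to 134577200 contained a H1 region of 300 bp at 134576201 to 134576500. It lay 111.9 to 113.2 kb from the start of the hg19 interval, and the third and the fourth RefSeq starts of GRCh38.p14 lie 111.8 kb apart, again without an alignment of the builds. The first RefSeq start lies 68.1 kb and the second 34.2 kb before the third. Which of them the hg19 interval begins at was not tested, and only the start of that interval was counted as a start. The cluster of most covered length that IMR90 alone held within the gene lay 139.3 to 142.2 kb from the start and covered 2000 bp at 134603301 to 134606200. In VCL, an IMR90 region of 1500 bp at the start (chromosome 10, 75758001 to 75759500) and a H1 region of 900 bp (75757901 to 75758800) overlapped. A further 18 IMR90 regions lay between 14.1 and 82.2 kb into the gene, with 1 H1 region of 100 bp in the gene at 60.7 kb. The IMR90 list had no region in either flank of VCL. AGBL3 lies within 20 kb of CALD1 in RefSeq, and AP3M1 within 20 kb of VCL.

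Both tropomyosins had H3K18ac at their starts in both lines. Within TPM1 on chromosome 15, IMR90 had a region of 1900 bp at 63335001 to 63336900, which ranked 734 in its list, and H1 had one of 1500 bp at 63335001 to 63336500, which ranked 1079. IMR90 then continued with 2400 bp at 63337201 to 63339600, where H1 had none, and with 6 regions at 63340801 to 63346500, where H1 had 600 bp. IMR90 alone also held 4 regions 17.1 to 20.8 kb upstream of TPM1. At the TPM2 start on chromosome 9 both lists held the same region of 800 bp, at 35689001 to 35689800. Upstream of it IMR90 had 1400 bp at 35690201 to 35691600, and H1 had 600 bp at 35690401 to 35691000. RefSeq places TLN1, CA9 and ARHGEF39 within 20 kb of TPM2.

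TAGLN, MYL9 and CNN1 are short genes. The 2 kb on either side of the start held 2900 of 5800 bp in IMR90 and 1300 of 1800 bp in H1 at TAGLN, 2300 of 2800 bp in IMR90 and 600 of 700 bp in H1 at MYL9, and 1400 of 3500 bp in IMR90 and 600 of 700 bp in H1 at CNN1. The longest TAGLN region in IMR90 measured 1900 bp on chromosome 11 at 117070101 to 117072000 and ranked 667 in its list, the highest rank of any IMR90 region at the 9 genes. In H1 the same stretch held regions of 500 and 200 bp, and the longest H1 region of the window measured 600 bp at 117068901 to 117069500. IMR90 alone had a further cluster of 3 regions downstream of TAGLN, at 117086801 to 117089900, where SIDT2 and PCSK7 are neighbours. At MYL9 on chromosome 20 the start region measured 1700 bp in IMR90 (35169901 to 35171600) and 100 bp in H1 (35170101 to 35170200). The longest H1 region at MYL9 measured 500 bp at 35169101 to 35169600. At CNN1 on chromosome 19 the start region measured 700 bp in IMR90 (11649801 to 11650500) and 500 bp in H1 (11649801 to 11650300). Upstream of CNN1, between 3.2 and 7.8 kb from the start, IMR90 alone had 4 regions, the longest of 900 bp at 11645901 to 11646800. ECSIT and ELOF1 lie within 20 kb of CNN1 in RefSeq, and DLGAP4 within 20 kb of MYL9.

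Several starts were bordered by a pair of regions with a short gap between them. Gaps of at most 1 kb whose middle lay within 1.5 kb of a start were found at 7 genes in IMR90 and at 6 in H1, and where a list had more than 1 the one nearest the start is given. Such spacing is common in these lists: 49.5% of neighbouring regions in the IMR90 list and 19.8% of those in the H1 list lie at most 1 kb apart. No share over the starts of other genes is given, as their hg19 positions were not used here. In both lists these 6 were TAGLN, MYL9, TPM1, TPM2, CNN1 and ACTB, and at each of them the gaps of the 2 lists overlapped. The gaps measured 300 to 600 bp in IMR90 and 500 to 600 bp in H1. At TPM1, for example, the gap ran over 63334601 to 63335000 in IMR90 and 63334501 to 63335000 in H1. At TAGLN it ran over 117069701 to 117070100 in IMR90 and 117069501 to 117070100 in H1. CALD1 had a gap of 400 bp in IMR90 alone, and ACTA2 and VCL had none in either list. Gene starts are known here only to 1 kb, and regions of a list never lie closer than 300 bp.

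**Figure D4:**
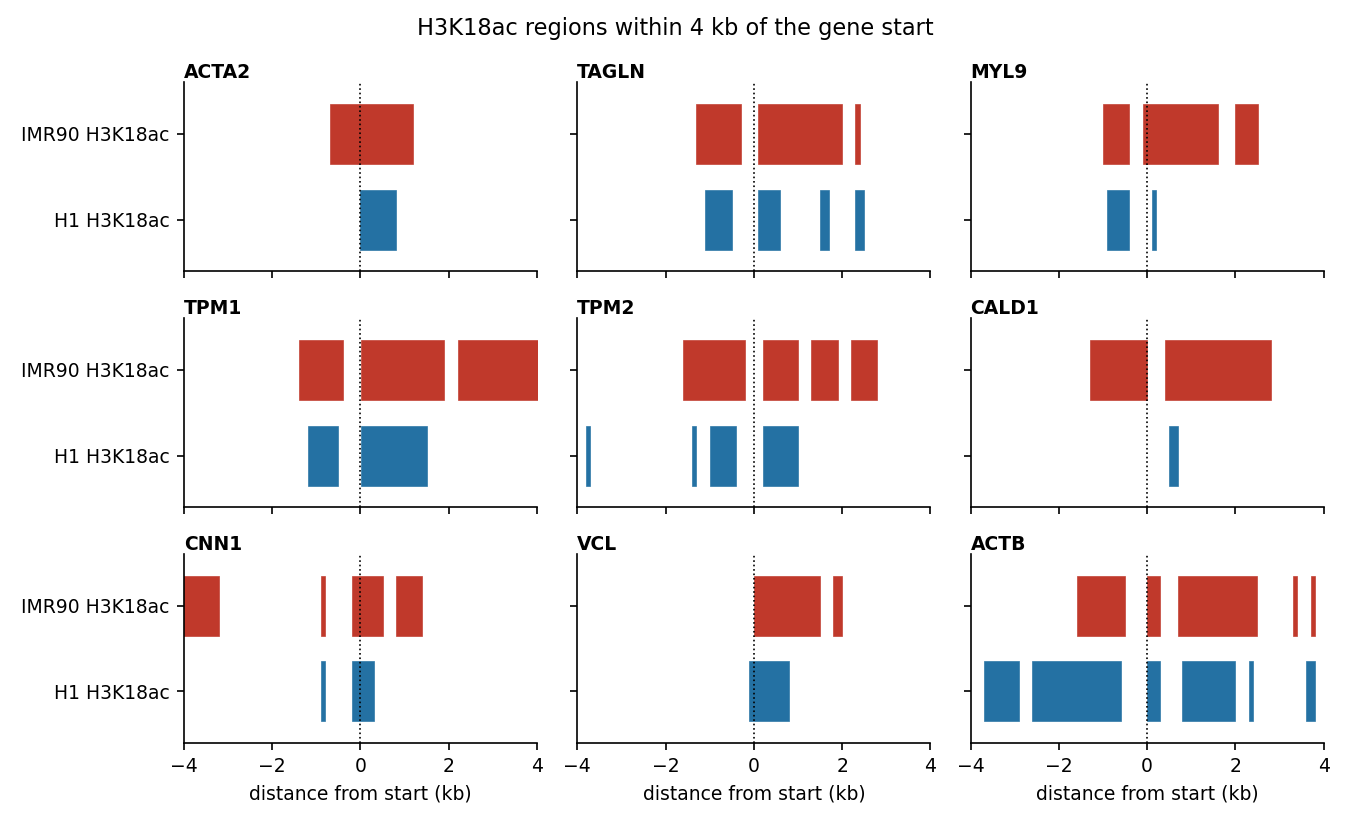
H3K18ac regions within 4 kb of each gene start, by distance from the start in kb (dotted line), with IMR90 above H1. At TAGLN, MYL9, TPM1, TPM2, CNN1 and ACTB both rows show a gap of 300 to 600 bp at or just before the start. Within the gene body the IMR90 boxes reach farther from the start than the H1 boxes at every gene but TAGLN. At ACTB they reach 2.5 kb in IMR90 and 2.4 kb in H1, and past its 3′ end both rows end alike.

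No BrdU region at these genes was longer than 200 bp, and none of them overlapped H3K18ac. The 4 lists held 11 regions in the windows of 5 genes, MYL9, TPM2, CALD1, VCL and ACTB. A BrdU region of any list was present in 17.8% of 50 kb tiles and 29.0% of 100 kb tiles, and the gene windows ranged from 43 to 231 kb. By list, genes with a region numbered 2 in H1 knockdown, 3 in IMR90, 3 in Saos-2 and 2 in H1 control. The shares of 50 kb tiles with a region were 2.96% in H1 knockdown, 7.73% in IMR90, 8.34% in Saos-2 and 7.57% in H1 control, and those of 100 kb tiles were 5.76% in H1 knockdown, 13.2% in IMR90, 14.3% in Saos-2 and 13.6% in H1 control. Of the 11 regions, 8 measured 100 bp and 3 measured 200 bp. The median length was 200 bp in Saos-2 and 100 bp in the other lists, both at the genes and in the whole list. The mean length at the genes was 100 bp in H1 knockdown, 125 bp in IMR90, 167 bp in Saos-2 and 100 bp in H1 control. In the whole lists it was 120 bp in H1 knockdown, 212 bp in IMR90, 329 bp in Saos-2 and 212 bp in H1 control. With so few regions a difference in length could not be judged. Per Mb of window there were 2.52 in H1 knockdown (exact Poisson 95% interval 0.305 to 9.10), 5.04 in IMR90 (1.37 to 12.9), 3.78 in Saos-2 (0.779 to 11.0) and 2.52 in H1 control (0.305 to 9.10). Each value lay above the density of its whole list and each interval included it: that density was 0.628 per Mb in H1 knockdown, 2.06 in IMR90, 2.25 in Saos-2 and 1.82 in H1 control. A difference from the rest of the genome was thus not detectable with so few regions. By score, 0 of the 11 were among the upper 20% of their list and 4 among the upper 50%.

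The actin gene ACTB had the most, 4 regions in its flanks. On chromosome 7, 8.2 kb upstream of its start, an IMR90 region at 5578201 to 5578400 and a Saos-2 region at 5578301 to 5578500 shared 100 bp. The H1 knockdown list had a region at 5588801 to 5588900, and IMR90 a second one at 5551301 to 5551400, which ranked 5699 of 5743. H1 control had none within 57.5 kb of the gene. In VCL, IMR90 and H1 control held the identical window on chromosome 10 at 75867201 to 75867300, 109.2 kb into the gene. In CALD1, a Saos-2 region at 134618501 to 134618700 and a H1 control region at 134618201 to 134618300 lay 201 bp apart without overlap. Near TPM2, IMR90 had a region at 35672301 to 35672400 and H1 knockdown one at 35662101 to 35662200. Near MYL9, Saos-2 had one at 35192701 to 35192800.

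The knockdown and control lists of H1 had no region in common at these genes: the 2 knockdown regions lay at TPM2 and ACTB, and the 2 control regions at CALD1 and VCL. Over the whole lists, 9.06% of knockdown regions overlapped a control region and 3.07% of control regions overlapped a knockdown one, so 0 in common among so few is near the background. Overlap with H3K18ac of either line was 0 of 11, which would allow a share of up to 27.3% if the regions were independent. Some are the same site in different lists, as at VCL and ACTB, so that limit is too narrow. Among all BrdU regions the share was 11.3%. By list that background was 3.59% in H1 knockdown, 11.1% in IMR90, 14.2% in Saos-2 and 10.5% in H1 control. The distance from a BrdU region at the genes to the nearest H3K18ac region of either list ran from 401 bp, from the knockdown region near ACTB to an IMR90 region, to 27001 bp, from the VCL region to an IMR90 region.

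Around ACTA2 the nearest BrdU region lay 2696 kb away in H1 knockdown, 1983 kb in IMR90, 815 kb in Saos-2 and 1712 kb in H1 control. At TAGLN the distances were 36.0 kb in H1 knockdown, 232 kb in IMR90, 220 kb in Saos-2 and 460 kb in H1 control. TPM1 had its nearest at 30.8 kb in H1 knockdown, 70.0 kb in IMR90, 118 kb in Saos-2 and 119 kb in H1 control. CNN1 stood apart from these, since a single site 73.9 to 74.0 kb away served IMR90, Saos-2 and H1 control alike, on chromosome 19 at 11575601 to 11576100 in IMR90, 11575501 to 11576100 in Saos-2 and 11575401 to 11576000 in H1 control. The nearest H1 knockdown region to CNN1 was 149.6 kb away.

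**Figure D5:**
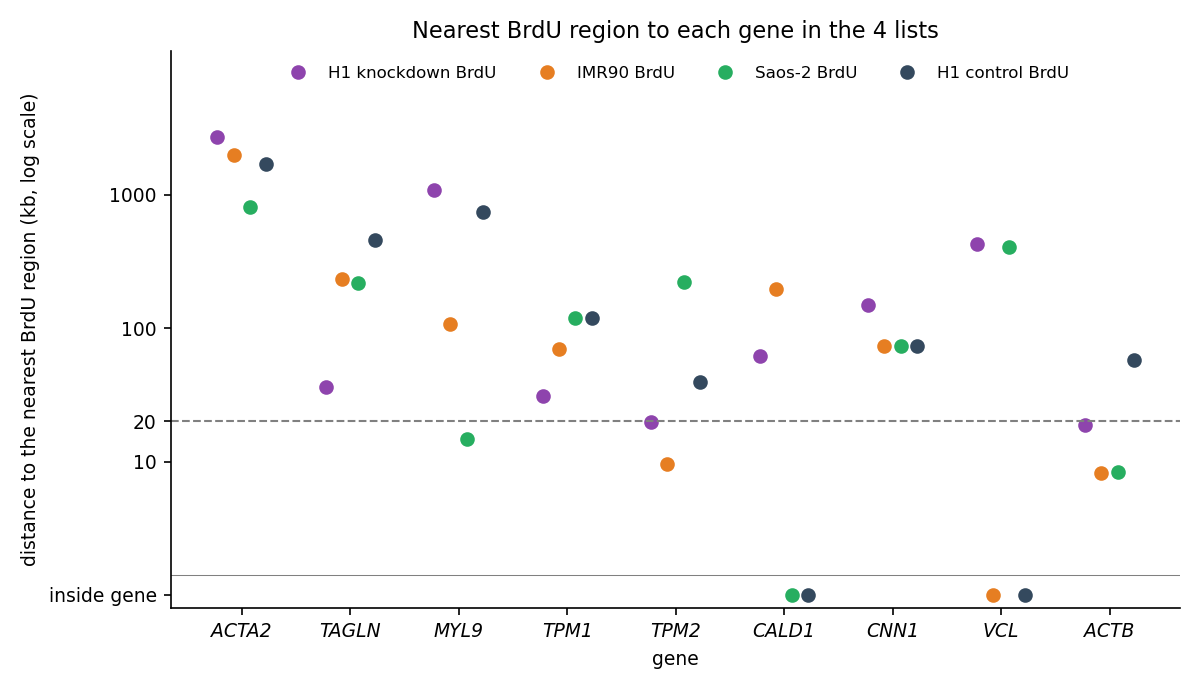
Distance in kb (log scale) from each gene to the nearest BrdU region of H1 knockdown, IMR90, Saos-2 and H1 control, 1 library each, with regions inside a gene drawn at the bottom. The dashed line marks 20 kb. Points lie inside the gene at CALD1 and VCL, and all points of ACTA2 lie at 815 kb or farther.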

How the data were processed

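Per the submitters' processing notes, reads were aligned with Bowtie 0.12.7 to hg19. The deposited files are 6 region lists, 1 per library, with a whole-number score per region that the authors do not explain. Scores served only for ranks inside a list. The sources used here do not give the region caller, its threshold or how the 6 inputs entered. Coordinates lie on a grid of 100 bp, both ends included. Read depth is unknown.

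Gene intervals came from the rule for the 9 genes. The members and lists were chosen with earlier results of these data known. Strands were taken from the RefSeq promoter table, and for TAGLN, MYL9 and ACTB from general knowledge. Covered length was cut at the window edges. Clusters join regions over gaps of up to 1 kb. The background was every 50 kb tile of the 500 kb bins that hold a region in any list (55870 tiles, 2793.5 Mb), and 100 kb tiles, a size added after the data were seen. Shares carry Wilson 95% intervals and densities exact Poisson ones, for counting error only. The limit for a count of 0 is 3 counts.

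All 9 genes are described. The regions named are, per gene and H3K18ac list, the longest one and the one at or nearest the start, and every BrdU region in a window. Other regions and clusters were chosen after their values were seen. Other genes of the pathway were not analysed here, as no hg19 annotation was used. Tools were numpy 2.4.6, scipy 1.17.1, pandas 2.3.3 and matplotlib 3.10.9 under Python 3.11.15. Overlap counting was checked on simulated regions with known answers.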

Additional observations from a re-analysis of the deposited data

How the results depend on the processing

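No paired analysis was possible because each group had 1 library. Of 60 alternative values of the 8 summary results, 37 stayed close to those reported and 23 moved. A reversal could be called only for the IMR90 over H1 ratio of covered length, which ran from 1.44 to 5.20 and stayed above 1. The ratio was 1.80, with 4 genes at 2 or more, without ACTA2, TPM1, CALD1 and VCL. That lies below the 2.51 of the whole lists, and a scaled ratio for the genes left was not computed. The ratio was 1.44, with 3 genes, when each list was divided by its whole covered length. There 26.9% of 50 kb tiles met the same rule and TPM2 alone turned direction, to 0.80. Window size moved the counts by construction. Gene bodies alone held 68 IMR90 and 17 H1 regions of H3K18ac, with 88.2% of the H1 regions shared, and 4 BrdU regions at 2 genes. With 5 kb flanks there were 4 BrdU regions at 2 genes, and 50 kb flanks gave 186 IMR90 and 88 H1 regions, with 6 genes at 2 times or more. The upper 50% of each list by score left 66 IMR90 regions, 30.3% of them shared, 7 genes at 2 times or more and 4 BrdU regions at 2 genes. Without the 4 long genes there were 38 IMR90 regions, 47.4% of them shared, and 7 BrdU regions at 3 genes. Requiring 50% of a region to overlap lowered the IMR90 share to 14.3%. Without ACTB, an alternative added after the data were seen, 7 BrdU regions were left. Apart from counts set by the size of the window or list, the cause was not tested.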
